A study of Arabidopsis thaliana with 9 samples.

Results

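Aquaporins are the membrane channels through which plant cells move water and small uncharged solutes, and the Arabidopsis genome carries them as a family of 35 loci. All 35 were taken as members by their locus identifiers, from the 28775 loci counted in root RNA: 13 plasma membrane intrinsic proteins (PIP, of which 5 are PIP1 and 8 are PIP2), 10 tonoplast intrinsic proteins (TIP), 9 NOD26-like intrinsic proteins (NIP) and 3 small basic intrinsic proteins (SIP). Of these, 29 of 35 had enough counts to be tested: 13 of 13 PIP, 7 of 10 TIP, 6 of 9 NIP and 3 of 3 SIP genes. The study sequenced mRNA from roots of 2-week-old Arabidopsis thaliana grown in 16 hours of light and 8 hours of dark at 24 °C, with 3 libraries from each of 3 genotypes. Wild-type Col-0 was the control. The 35S:miR858 plants overexpress the microRNA miR858, and the 35S:rMYB83 plants overexpress a form of the transcription factor MYB83 that miR858 cannot target. The title of the series places both lines in a study of cyst nematode parasitism, but the labels name no infection. Both transgenes are named for the cauliflower mosaic virus 35S promoter, which is active in most cell types, and the labels do not say how many independent lines or plants a library holds. Whether the replicates were planted separately is not in the labels. A p-value here therefore reflects the spread between libraries of a genotype, estimated over all 3 genotypes together, and that spread may be technical.

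Each aquaporin is a bundle of membrane helices in which a pair of short loops, each built on an asparagine-proline-alanine (NPA) box, meet in the middle of the pore. PIP proteins sit in the plasma membrane, where PIP1 and PIP2 proteins assemble into mixed tetramers and PIP1 proteins depend on PIP2 partners to reach the cell surface. TIP proteins sit in the vacuolar membrane, NIP proteins carry solutes such as boric acid, arsenite and lactic acid more than water, and SIP proteins are found in the endoplasmic reticulum. In roots, PIP and TIP channels carry much of the water that crosses cells on its way to the xylem.

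The NPA boxes vary within the NIP and SIP groups described below, and those of selected members are shown. In each stretch of coding sequence, written from the RefSeq TAIR10.1 genome, the capitals mark the codons of the NPA box. The boxes of the PIP and TIP genes shown read asparagine, proline, alanine. In the boric acid channel NIP5;1 the last codon of the first box encodes serine and that of the second encodes valine, and in NIP6;1 the second box also ends in valine. In SIP1;1 the first box ends in threonine. These endings do not mark whole groups. NIP2;1, NIP3;1, NIP4;1 and NIP4;2 have alanine in both boxes, and NIP1;1 and NIP1;2 end the second box in glycine. The second boxes of all SIP genes end in alanine.
PIP1;5 first box: ggaggacatattAATCCGGCGgtgactttt
TIP1;2 first box: ggtggccacgttAACCCTGCCgttaccttc
NIP5;1 first box: ggggctcacctaAACCCATCActgaccata
NIP5;1 second box: ggtggatctatgAATCCTGTGagaactcta
NIP6;1 first box: ggggcacatctcAATCCGGCTgtaaccatt
NIP6;1 second box: tctgcttcgatgAACCCTGTAagaacactg
SIP1;1 first box: agcgctagcttcAATCCTACCggaagcgct

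The microRNA that 1 of the lines overexpresses is shown with its seed, bases 2 to 8, in capitals. Its mature sequence was read from the reference at chromosome 1, 26773695 to 26773715, minus strand, as annotated for miR858a.
miR858a: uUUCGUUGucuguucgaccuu
Aquaporin transcripts were scanned for complementary sites with a penalty of 1 for a mismatch and 0.5 for a G:U pair, doubled at positions 2 to 13 of the microRNA. MYB83, a target of miR858, had a best penalty of 3. The lowest penalty among the aquaporins was 7, for SIP2;1, and 1.74% of 27444 genes scored as low or lower. A score describes pairing only and is no evidence of cleavage or of its absence.

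The libraries held 5313656 to 10648857 gene counts. Levels are given as counts per 1000000 counts of the library (CPM) after TMM scaling, which aligns libraries on the bulk of genes, and the 3 values of a genotype are listed in the order of the replicate numbers. MYB83 stood at 0.723 to 2.17 CPM in Col-0, 1.51 to 1.56 CPM in 35S:miR858 and 98 to 134 CPM in 35S:rMYB83. Its 35S:miR858 values lay within the Col-0 range. The MIR858A locus had 120, 200 and 227 counts in 35S:miR858 and 0 counts in the other 6 libraries. All 10 root marker genes were counted in every library, with summed levels of 248 to 338 CPM in Col-0, 329 to 413 in 35S:miR858 and 306 to 343 in 35S:rMYB83. The 20 green shoot markers summed to 4104 CPM in Col-0 replicate 1 and to 8013 CPM in 35S:rMYB83 replicate 1, against 658 to 2042 CPM in the other 7 libraries. The 8 seed storage markers summed to 0.453 to 0.689 CPM in Col-0, 1.56 to 37.3 in 35S:miR858 and 7.26 to 23.6 in 35S:rMYB83.

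Aquaporins made up more of the root mRNA in both overexpression lines than in Col-0. Summed over the 35 loci, they took 4391, 4810 and 4771 CPM in Col-0, 7751, 9819 and 7749 in 35S:miR858 and 7388, 8315 and 6971 in 35S:rMYB83. Every library of either line was above every Col-0 library. By group of genes, the summed level in Col-0, 35S:miR858 and 35S:rMYB83 was 1454 ± 57.1, 2497 ± 299 and 2489 ± 243 CPM for PIP1 (SD, n = 3), and 1337 ± 38.9, 2402 ± 303 and 1858 ± 209 CPM for PIP2. For TIP it was 1510 ± 80.3, 3280 ± 584 and 2930 ± 224 CPM. NIP went the other way, at 212 ± 53.4, 127 ± 15.2 and 135 ± 7.52 CPM, and SIP stood at 144 ± 15.1, 134 ± 10.6 and 146 ± 9.68 CPM. The PIP1, PIP2 and TIP sums did not overlap between Col-0 and either line, nor did the NIP sums, whereas the SIP sums overlapped in all 3 genotypes. In bulk roots, a change in the share of cells that express a channel and a change in its RNA per cell cannot be told apart.

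**Figure D1:**
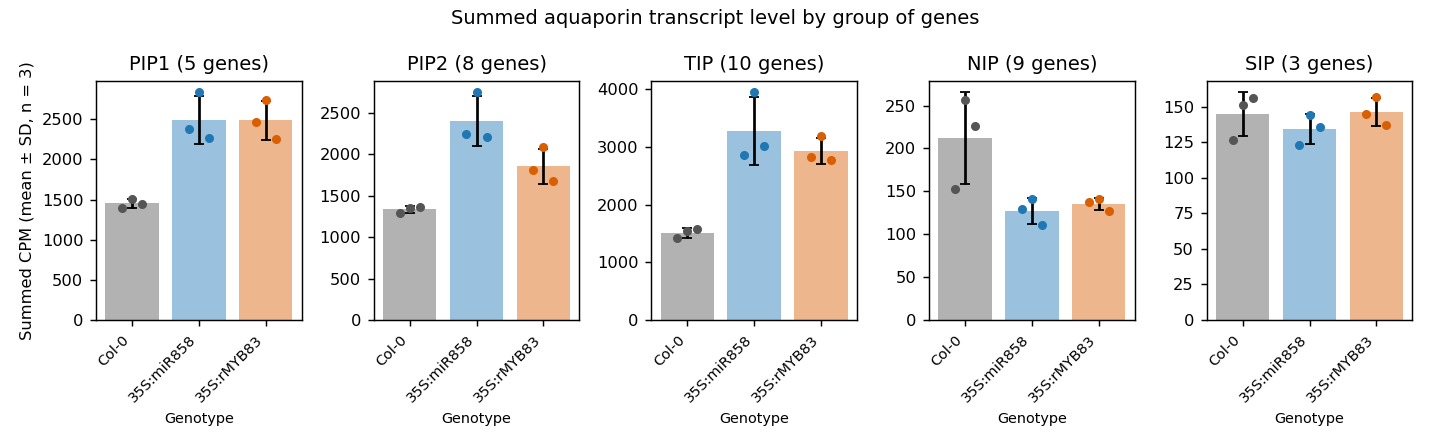
Summed level (CPM, TMM-scaled) of the PIP1, PIP2, TIP, NIP and SIP genes by genotype, with bars at the mean, error bars of 1 SD and 1 point per library (n = 3). The PIP1, PIP2 and TIP points of both overexpression lines lie above all Col-0 points, the NIP points lie below them and the SIP points overlap.

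Gene by gene, 13 aquaporins were higher and 6 lower in 35S:miR858 than in Col-0 at an adjusted p under 0.05 in edgeR's quasi-likelihood test, or 65.5% of the 29 tested, where 25.1% of all 19496 genes tested passed (11.6% higher and 13.5% lower). In 35S:rMYB83, 10 were higher and 3 lower than in Col-0, or 44.8%, against 16.4% of all genes (6.7% higher and 9.73% lower). The median log2 fold change of the 29 members was 0.35 in 35S:miR858 and 0.22 in 35S:rMYB83, beside -0.02 and 0.01 over all genes tested. Both comparisons use the same 3 Col-0 libraries, so their values are set side by side and not counted as independent. The members that rose were PIP and TIP genes in both lines. Those that fell were 4 NIP and 2 PIP genes in 35S:miR858, and 2 NIP genes and 1 PIP gene in 35S:rMYB83. In the direct comparison of 35S:rMYB83 with 35S:miR858, 2 members were higher and 2 lower, or 13.8% of the 29, against 4.05% of all genes (2.5% higher and 1.54% lower). Without 35S:rMYB83 replicate 2, 5 members rather than 10 were higher in 35S:rMYB83 than in Col-0, and without Col-0 replicate 1, 6 rather than 3 were lower. On library totals with no TMM factors, the median over all genes shifted to -0.162 in 35S:miR858 and -0.097 in 35S:rMYB83, with 1355 genes higher and 4148 lower against 2271 and 2629 under TMM in the former, and 842 and 2771 against 1306 and 1897 in the latter. Members then numbered 12 higher and 8 lower in 35S:miR858 and 9 higher and 5 lower in 35S:rMYB83. The libraries of the groups did not overlap for 13 members above and 7 below Col-0 in 35S:miR858, where 40.6% of all genes did not overlap (18.8% above and 21.8% below). In 35S:rMYB83 this held for 12 members above and 4 below Col-0, against 34% of all genes (16% above and 17.9% below). Between the lines it held for 5 members with 35S:rMYB83 higher and 6 with it lower, against 24.8% of all genes (12.3% higher and 12.5% lower).

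**Figure D2:**
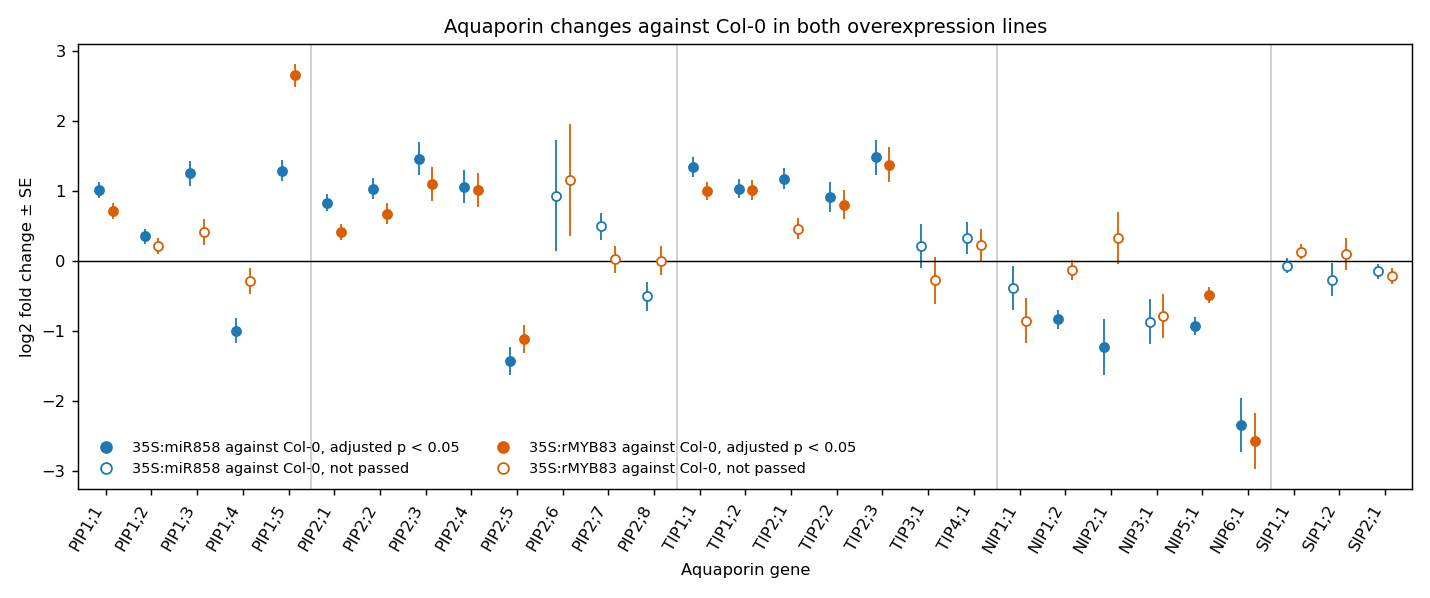
Log2 fold change against Col-0 with its SE for the 29 tested aquaporins in 35S:miR858 and 35S:rMYB83, with filled points for an adjusted p under 0.05. The highest point is PIP1;5 at 2.65 in 35S:rMYB83, and the lowest pair is NIP6;1 at -2.35 and -2.58.

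All 5 PIP1 genes changed in 35S:miR858, with 4 higher and 1 lower, and 2 of 5 changed in 35S:rMYB83, both higher. PIP1;5 (AT4G23400, chromosome 4, 12220641 to 12222468, plus strand) had the largest rise of any aquaporin in 35S:rMYB83. It stood at 97.6, 137 and 130 CPM in Col-0, 268, 335 and 288 in 35S:miR858 and 775, 848 and 659 in 35S:rMYB83. The 3 genotypes did not overlap, with Col-0 lowest and 35S:rMYB83 highest. The log2 fold change against Col-0 was 1.29 ± 0.15 (SE) in 35S:miR858 (adjusted p = 0.000334) and 2.65 ± 0.16 in 35S:rMYB83 (adjusted p = 2.26e-05). Between the lines it was 1.36 ± 0.15 (adjusted p = 0.00184), and these 3 calls held in each of the 9 fits that left out 1 library. Per kilobase of transcript, PIP1;5 ranked the tenth of the tested aquaporins in Col-0, at 91.5 ± 15.8 CPM per kilobase, and the third in 35S:rMYB83, at 573 ± 71.7 CPM per kilobase, where its range overlapped that of PIP2;1. The share of this gene in the summed PIP1 level per kilobase was 9.86 ± 1.37% in Col-0, 13.8 ± 0.822% in 35S:miR858 and reached 34.4 ± 1.34% in 35S:rMYB83. In 35S:rMYB83 PIP1;2 held 25.7 ± 1.31%, against 40 ± 2.78% in Col-0.

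**Figure D3:**
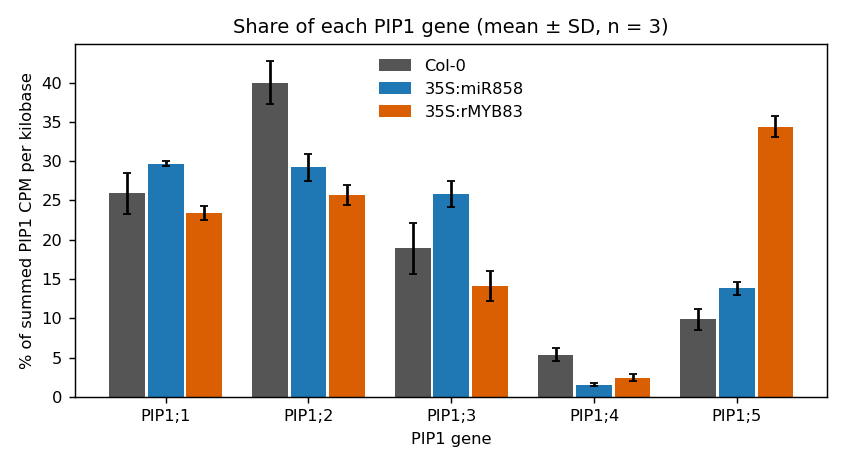
Share of each PIP1 gene in the summed PIP1 level per kilobase (percent, mean with 1 SD, n = 3 libraries) by genotype. The largest share in Col-0 is 40%, for PIP1;2, and the largest in 35S:rMYB83 is 34.4%, for PIP1;5.

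PIP1;1 (AT3G61430, chromosome 3, 22733243 to 22735394, plus strand), a plasma membrane channel of the PIP1 type, rose in both lines. It stood at 390, 346 and 378 CPM in Col-0, 721, 842 and 679 in 35S:miR858 and 573, 687 and 556 in 35S:rMYB83, so that neither line overlapped Col-0. Its log2 fold change was 1.01 ± 0.12 in 35S:miR858 (adjusted p = 0.000314) and 0.71 ± 0.12 in 35S:rMYB83 (adjusted p = 0.00335). PIP1;3 (AT1G01620, chromosome 1, 225665 to 227543, minus strand) rose in 35S:miR858. It stood at 213, 326 and 278 CPM in Col-0, 574, 779 and 594 in 35S:miR858 and 306, 410 and 369 in 35S:rMYB83. The 35S:miR858 libraries lay above all the others, and the other genotypes overlapped each other. Against Col-0 the log2 fold change was 1.25 ± 0.18 in 35S:miR858 (adjusted p = 0.00101) and 0.41 ± 0.18 in 35S:rMYB83, which did not pass (adjusted p = 0.155). With the sum of green shoot markers as a covariate it passed there as higher (0.55, adjusted p = 0.00817).

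PIP1;2 (AT2G45960, chromosome 2, 18910081 to 18911982, plus strand), which contributes to root water uptake, was the most abundant PIP1 transcript per kilobase in Col-0, at 369 ± 12.4 CPM per kilobase. It stood at 612, 583 and 574 CPM in Col-0, 767, 828 and 665 in 35S:miR858 and 710, 716 and 615 in 35S:rMYB83. All libraries of both lines were above Col-0, the lowest of them by a small margin. In edgeR the log2 fold change was 0.35 ± 0.11 in 35S:miR858 (adjusted p = 0.0348) and 0.21 ± 0.11 in 35S:rMYB83, which did not pass (adjusted p = 0.223). The 35S:miR858 call ended without Col-0 replicate 2 (adjusted p = 0.0865), Col-0 replicate 3 (0.0918), 35S:miR858 replicate 1 (0.083) or 35S:miR858 replicate 2 (0.127), and on library totals (0.148, log2 fold change 0.20). PIP1;4 (AT4G00430, chromosome 4, 185285 to 187680, minus strand), a channel for water and hydrogen peroxide, was the PIP1 gene that fell. It stood at 86.5, 121 and 90.6 CPM in Col-0, 53.5, 51.5 and 44.4 in 35S:miR858 and 98.6, 84.3 and 61.5 in 35S:rMYB83. The 35S:miR858 libraries were below all the others. Its log2 fold change was -1.0 ± 0.18 in 35S:miR858 (adjusted p = 0.00359) and -0.29 ± 0.18 in 35S:rMYB83 (adjusted p = 0.313).

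Among the 8 PIP2 genes, the water channels that also carry PIP1 partners to the surface, 4 rose and 1 fell in each line against Col-0. PIP2;1 (AT3G53420, chromosome 3, 19803473 to 19805730, minus strand), a main water channel of roots and guard cells, was the most abundant PIP2 transcript per kilobase in Col-0, at 374 ± 34.6 CPM per kilobase. It stood at 646, 538 and 580 CPM in Col-0, 1071, 1142 and 912 in 35S:miR858 and 768, 864 and 709 in 35S:rMYB83. The 3 genotypes did not overlap, with 35S:miR858 highest. Against Col-0 the log2 fold change was 0.83 ± 0.12 in 35S:miR858 (adjusted p = 0.00111) and 0.41 ± 0.12 in 35S:rMYB83 (adjusted p = 0.0454). The 35S:rMYB83 call, close to the threshold, ended without Col-0 replicate 2 (adjusted p = 0.14), Col-0 replicate 3 (0.117), 35S:miR858 replicate 1 (0.0643), 35S:miR858 replicate 2 (0.0563), or 35S:rMYB83 replicate 1, 2 or 3 (0.0913, 0.141 and 0.056), on library totals (0.104) and in a fit of the 2 groups compared (0.0705).

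PIP2;2 (AT2G37170, chromosome 2, 15613368 to 15615022, minus strand) and PIP2;3 (AT2G37180, chromosome 2, 15617635 to 15619155, plus strand) are neighbours that point away from each other, and their coding sequences are 94.8% identical. PIP2;2 contributes to root water transport. It stood at 307, 324 and 393 CPM in Col-0, 602, 833 and 661 in 35S:miR858 and 523, 624 and 480 in 35S:rMYB83. PIP2;3 stood at 60.4, 32.2 and 47.5 CPM in Col-0, 104, 164 and 118 in 35S:miR858 and 103, 114 and 82.7 in 35S:rMYB83. Neither line overlapped Col-0 for either gene. The log2 fold change of PIP2;2 was 1.03 ± 0.15 in 35S:miR858 (adjusted p = 0.00117) and 0.67 ± 0.15 in 35S:rMYB83 (adjusted p = 0.0154). For PIP2;3 it was 1.46 ± 0.24 (adjusted p = 0.00195) and 1.1 ± 0.24 (adjusted p = 0.0125). The files tally alignments that fit more than 1 place apart from the genes, so reads from stretches that are identical in both genes are missing and the level of each is uncertain. In 35S:rMYB83 the PIP2;2 call ended without Col-0 replicate 2 (adjusted p = 0.0557) or 35S:rMYB83 replicate 2 (0.0528), and the PIP2;3 call without 35S:rMYB83 replicate 2 (0.0509).

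The stretches of 250 bases just before the annotated starts of this neighbouring pair are shown with those of the members that had the largest rise and the largest fall in 35S:rMYB83. Capitals mark matches to a MYB83-type motif, searched on both strands as 8 words: ACCAAAC or ACCAAAT or ACCAACC or ACCAACT or ACCTAAC or ACCTAAT or ACCTACC or ACCTACT. The sequences come from RefSeq TAIR10.1 and are written on the strand of the gene. They span chr4:12220391-12220640 (plus strand), chr2:15615023-15615272 (minus strand), chr2:15617385-15617634 (plus strand) and chr1:30352209-30352458 (minus strand), in the order printed.
PIP1;5: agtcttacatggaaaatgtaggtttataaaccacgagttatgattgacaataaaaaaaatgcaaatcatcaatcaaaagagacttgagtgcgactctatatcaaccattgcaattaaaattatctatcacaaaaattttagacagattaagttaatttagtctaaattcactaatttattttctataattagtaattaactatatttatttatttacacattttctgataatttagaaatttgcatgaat
PIP2;2: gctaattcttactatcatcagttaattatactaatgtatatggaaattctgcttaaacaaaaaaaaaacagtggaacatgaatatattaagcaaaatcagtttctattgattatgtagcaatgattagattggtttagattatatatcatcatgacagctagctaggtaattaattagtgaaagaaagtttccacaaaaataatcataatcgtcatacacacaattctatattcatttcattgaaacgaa
PIP2;3: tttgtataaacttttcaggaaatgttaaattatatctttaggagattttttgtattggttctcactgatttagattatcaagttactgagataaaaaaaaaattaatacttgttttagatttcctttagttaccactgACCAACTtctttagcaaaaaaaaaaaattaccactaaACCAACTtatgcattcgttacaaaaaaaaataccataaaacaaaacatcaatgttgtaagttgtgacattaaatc
NIP6;1: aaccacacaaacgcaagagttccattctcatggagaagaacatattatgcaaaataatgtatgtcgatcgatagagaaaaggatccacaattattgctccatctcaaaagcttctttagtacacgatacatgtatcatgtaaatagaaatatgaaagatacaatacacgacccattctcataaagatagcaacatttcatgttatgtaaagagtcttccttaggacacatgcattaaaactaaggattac
The third of these held 2 matches, both of the word ACCAACT, and the other 3 windows held 0. Over the family, 7 of 35 members (20%) held a match within 250 bases, against 29.4% of 27444 genes, and 26 of 35 (74.3%) held 1 or more within 1000 bases, against 73.2% of genes. PIP1;5 had 1 match within 1000 bases and NIP6;1 had 0. A match is a run of letters and not a shown binding site, and the lack of 1 says only that these letters are not in the window.

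PIP2;4 (AT5G60660, chromosome 5, 24375368 to 24377206, minus strand), a root water channel, stood at 47, 87.4 and 92.5 CPM in Col-0, 131, 195 and 146 in 35S:miR858 and 139, 172 and 145 in 35S:rMYB83. Neither line overlapped Col-0, whose replicate 1 was the lowest library. In edgeR the log2 fold change was 1.06 ± 0.24 in 35S:miR858 (adjusted p = 0.0102) and 1.01 ± 0.24 in 35S:rMYB83 (adjusted p = 0.0189), the latter lost without 35S:rMYB83 replicate 2 (adjusted p = 0.0621). PIP2;5 (AT3G54820, chromosome 3, 20301759 to 20304309, plus strand), a PIP2 gene known to be induced by drought, fell in both lines. It stood at 19.8, 22.3 and 24.5 CPM in Col-0, 10.3, 7.17 and 6.99 in 35S:miR858 and 7.38, 11.1 and 11.6 in 35S:rMYB83. The lines overlapped each other and stayed below Col-0. Its log2 fold change was -1.44 ± 0.20 in 35S:miR858 (adjusted p = 0.000798) and -1.12 ± 0.20 in 35S:rMYB83 (adjusted p = 0.00441).

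The remaining 3 PIP2 genes passed in neither line. PIP2;7 (AT4G35100), an abundant plasma membrane water channel, ranged from 194 to 332 CPM in Col-0, 319 to 399 in 35S:miR858 and 226 to 285 in 35S:rMYB83, and its log2 fold change was 0.49 ± 0.19 (adjusted p = 0.0854) and 0.02 ± 0.19 (adjusted p = 0.96). In 35S:miR858 it passed as higher in DESeq2 (adjusted p = 0.04), with the green shoot covariate (0.0496) and without Col-0 replicate 2, the highest Col-0 library (0.00686). PIP2;6 (AT2G39010), known from leaves more than from roots, ranged from 1.57 to 10.3 CPM in Col-0, 3.33 to 22.3 in 35S:miR858 and 7.38 to 20.1 in 35S:rMYB83. In each genotype its highest library was the library with the highest sum of green shoot markers, at 4104 CPM in Col-0 replicate 1, 2042 CPM in 35S:miR858 replicate 3 and 8013 CPM in 35S:rMYB83 replicate 1, and the part of these markers in its level was not tested. PIP2;8 (AT2G16850) stood between 5.88 and 11.7 CPM in all 9 libraries and passed in 35S:miR858 without 35S:rMYB83 replicate 3 (log2 fold change -0.52, adjusted p = 0.0409).

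**Figure D4:**
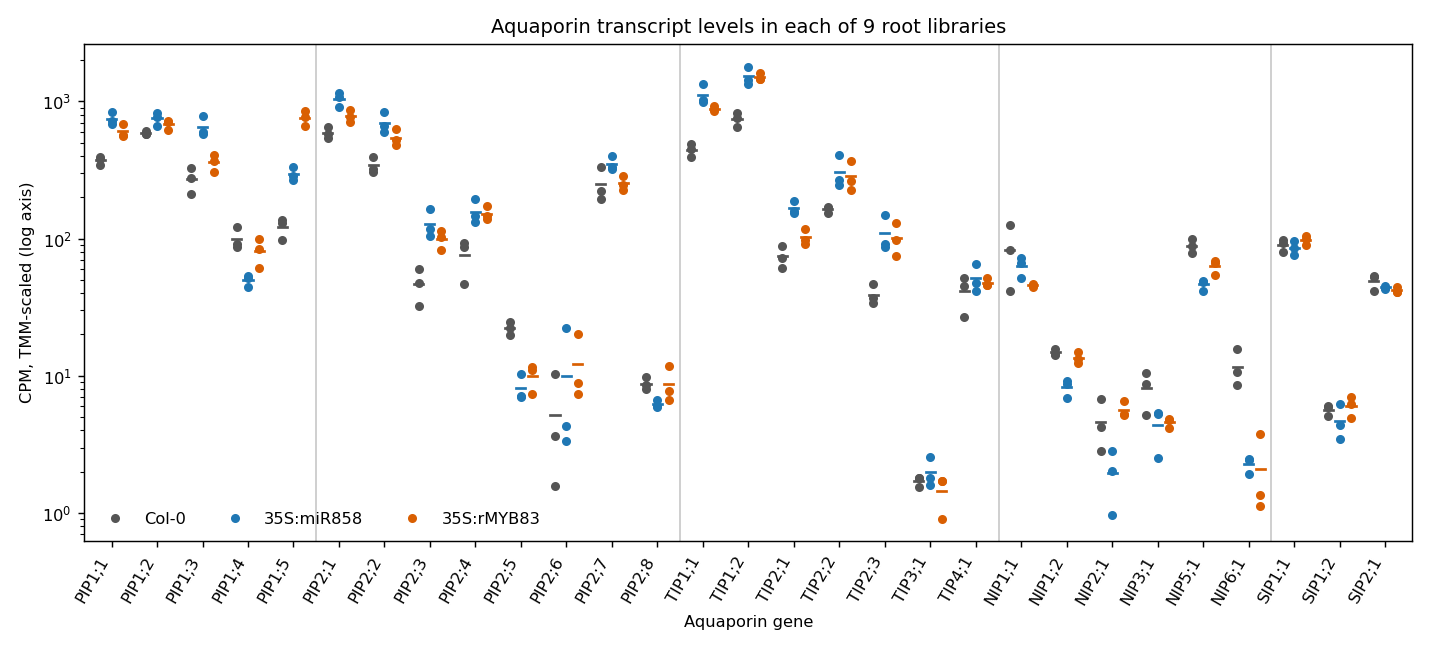
Level (CPM, TMM-scaled, log axis) of the 29 tested aquaporins in each of the 9 root libraries, with 1 point per library and a dash at the mean of each genotype. Vertical lines part PIP1, PIP2, TIP, NIP and SIP, and TIP1;2 is the highest gene in each genotype.

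Of the 7 tested TIP genes, 5 rose in 35S:miR858, 4 rose in 35S:rMYB83, and none fell at the threshold. TIP1;2 (AT3G26520, chromosome 3, 9722443 to 9723904, minus strand) and TIP1;1 (AT2G36830, chromosome 2, 15445294 to 15446621, plus strand) encode the main water channels of the vegetative vacuole. TIP1;2 was the most abundant aquaporin per kilobase in all genotypes, at 579 ± 69.2 CPM per kilobase in Col-0, 1182 ± 185 in 35S:miR858 and, close to it, 1168 ± 71.1 in 35S:rMYB83. Its level was 651, 828 and 760 CPM in Col-0, 1338, 1793 and 1442 in 35S:miR858 and 1449, 1612 and 1457 in 35S:rMYB83. TIP1;1 stood at 446, 394 and 491 CPM in Col-0, 986, 1342 and 1030 in 35S:miR858 and 854, 927 and 876 in 35S:rMYB83. Both genes lay above Col-0 in every library of either line. The log2 fold change of TIP1;2 was 1.03 ± 0.14 in 35S:miR858 (adjusted p = 0.000627) and 1.01 ± 0.14 in 35S:rMYB83 (adjusted p = 0.00119). For TIP1;1 it was 1.34 ± 0.14 (adjusted p = 0.000153) and 1.0 ± 0.13 (adjusted p = 0.0012). These 4 calls held in every fit that left out 1 library.

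The TIP2 genes encode vacuolar channels that pass ammonia as well as water. TIP2;2 (AT4G17340, chromosome 4, 9698940 to 9700472, plus strand) stood at 171, 153 and 168 CPM in Col-0, 247, 409 and 266 in 35S:miR858 and 263, 366 and 227 in 35S:rMYB83. In each line replicate 2 was well above the other replicates. Against Col-0 the log2 fold change was 0.91 ± 0.21 in 35S:miR858 (adjusted p = 0.0122) and 0.80 ± 0.21 in 35S:rMYB83 (adjusted p = 0.0301). In 35S:rMYB83 the call ended without Col-0 replicate 2 (adjusted p = 0.0959), Col-0 replicate 3 (0.081) or 35S:rMYB83 replicate 2 (0.102, log2 fold change 0.57), and without both libraries rich in green shoot markers (0.0509). TIP2;3 (AT5G47450, chromosome 5, 19248249 to 19249622, minus strand) stood at 34.2, 46.3 and 36.6 CPM in Col-0, 87.5, 148 and 91.3 in 35S:miR858 and 98.2, 130 and 75.1 in 35S:rMYB83. It lay above Col-0 in all libraries of both lines, with log2 fold changes of 1.48 ± 0.25 (adjusted p = 0.00223) and 1.37 ± 0.25 (adjusted p = 0.00512).

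TIP2;1 (AT3G16240, chromosome 3, 5505360 to 5507050, plus strand) rose in 35S:miR858. It stood at 88.1, 72.8 and 61.3 CPM in Col-0, 159, 187 and 154 in 35S:miR858 and 118, 97.5 and 90.9 in 35S:rMYB83. The 3 genotypes did not overlap, with 35S:rMYB83 in between. In edgeR the log2 fold change was 1.17 ± 0.15 in 35S:miR858 (adjusted p = 0.00053) and 0.46 ± 0.15 in 35S:rMYB83, which did not pass (adjusted p = 0.0647). In 35S:rMYB83 it passed without Col-0 replicate 1 (log2 fold change 0.60, adjusted p = 0.0183), without both libraries rich in green shoot markers (0.031) and in DESeq2 (0.0276). Its exons overlap those of AT3G16250 on the other strand by 120 bases. That gene stood at means of 1.64, 0.833 and 2.99 CPM in Col-0, 35S:miR858 and 35S:rMYB83. TIP2;1 also shares 46 bases with AT3G03265 on the other strand, which is not among the counted loci. TIP4;1 (AT2G25810), a root TIP, ranged from 26.9 to 51.6 CPM in Col-0, 41.2 to 65.8 in 35S:miR858 and 45.6 to 52 in 35S:rMYB83 and passed in neither line (log2 fold change 0.33 ± 0.23 and 0.22 ± 0.23). TIP3;1 (AT1G73190), a TIP of seed storage vacuoles, had 8 to 21 counts per library and passed in neither line. It shares 290 exon bases with AT1G73200 on the other strand, whose mean level was 44.2, 50.5 and 43.9 CPM in Col-0, 35S:miR858 and 35S:rMYB83.

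No NIP gene rose at the threshold in either line against Col-0, while 4 of 6 tested fell in 35S:miR858 and 2 of 6 in 35S:rMYB83. NIP6;1 (AT1G80760, chromosome 1, 30350539 to 30352208, minus strand), a boric acid channel known from the distribution of boron in shoots, had the largest fall of the family. It stood at 8.53, 15.7 and 10.7 CPM in Col-0, 1.92, 2.43 and 2.47 in 35S:miR858 and 3.79, 1.35 and 1.13 in 35S:rMYB83. These are 89 to 173 counts per library in Col-0 and 10 to 23 counts in the lines, and every Col-0 library was above every other. Its log2 fold change was -2.35 ± 0.39 in 35S:miR858 (adjusted p = 0.00203) and -2.58 ± 0.40 in 35S:rMYB83 (adjusted p = 0.00251). The highest 35S:rMYB83 library, replicate 1, is also the library with 8013 CPM of green shoot markers, and without it the log2 fold change was -3.22 (adjusted p = 0.000853). In 35S:miR858 the library with most of these markers, replicate 3 at 2042 CPM, was highest for NIP6;1 by a small margin. In Col-0 the library with most of them, replicate 1 at 4104 CPM, was instead the lowest for NIP6;1, at 8.53 CPM. The part of shoot tissue in this level was not tested. Its exons share 26 bases with AT1G80750 on the other strand, whose mean level was 53.9, 52.9 and 60.2 CPM in Col-0, 35S:miR858 and 35S:rMYB83.

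NIP5;1 (AT4G10380, chromosome 4, 6431161 to 6435396, minus strand), the boric acid channel for boron uptake by roots, also fell in both lines. It stood at 78.5, 87.8 and 99.7 CPM in Col-0, 49.3, 48.4 and 41.4 in 35S:miR858 and 66.6, 68.1 and 54.2 in 35S:rMYB83. The 3 genotypes did not overlap, with 35S:miR858 lowest. Against Col-0 the log2 fold change was -0.93 ± 0.13 in 35S:miR858 (adjusted p = 0.000675) and -0.49 ± 0.12 in 35S:rMYB83 (adjusted p = 0.0241). The latter call ended without Col-0 replicate 2 (adjusted p = 0.0612), Col-0 replicate 3 (0.0899) or 35S:rMYB83 replicate 3 (0.0658). NIP1;2 (AT4G18910, chromosome 4, 10366044 to 10368510, plus strand), which transports aluminium malate, fell in 35S:miR858. It stood at 15.7, 14.5 and 14.2 CPM in Col-0, 6.84, 9.22 and 8.72 in 35S:miR858 and 12.3, 14.9 and 13.3 in 35S:rMYB83. The 35S:miR858 libraries were below all the others, with a log2 fold change of -0.84 ± 0.14 (adjusted p = 0.00228), beside -0.13 ± 0.14 in 35S:rMYB83 (adjusted p = 0.581).

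NIP2;1 (AT2G34390, chromosome 2, 14514487 to 14515988, minus strand), a lactic acid channel induced by low oxygen, was near the threshold. It stood at 2.84, 4.26 and 6.75 CPM in Col-0, 2.04, 2.82 and 0.968 in 35S:miR858 and 5.3, 5.14 and 6.58 in 35S:rMYB83. The highest 35S:miR858 library was just under the lowest of Col-0. In edgeR the log2 fold change was -1.24 ± 0.40 in 35S:miR858 (adjusted p = 0.0483) and 0.32 ± 0.37 in 35S:rMYB83 (adjusted p = 0.611). The call held without Col-0 replicate 1 or 35S:miR858 replicate 2 and ended without any other library: Col-0 replicate 2 (adjusted p = 0.0875) or 3 (0.161), 35S:miR858 replicate 1 (0.095) or 3 (0.131), or 35S:rMYB83 replicate 1, 2 or 3 (0.0597, 0.0623 and 0.0604). It also ended in a fit of the 2 groups compared (0.0864). Its 1403 exon bases overlap 2 genes on the other strand, of which AT2G34380 shares 30 bases and AT2G08660 shares 838 bases. AT2G34380 stood at means of 9.21, 7.83 and 9.14 CPM in Col-0, 35S:miR858 and 35S:rMYB83. AT2G08660 is not among the counted loci, so it has no level to set beside that of NIP2;1. How strand was treated in counting is not stated, so reads from the genes cannot be told apart there.

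The other tested NIP genes, both known for arsenite transport, did not pass in either line. NIP1;1 (AT4G19030) ranged from 41.6 to 125 CPM in Col-0, 51.5 to 72.3 in 35S:miR858 and 44.7 to 46.5 in 35S:rMYB83, with log2 fold changes of -0.39 ± 0.31 and -0.86 ± 0.32. Its lowest Col-0 library was replicate 1, which also held 4104 CPM of green shoot markers. Without that library it passed as lower in 35S:miR858 (log2 fold change -0.72, adjusted p = 0.0175) and in 35S:rMYB83 (-1.19, adjusted p = 0.00252). In the latter it also passed on library totals (adjusted p = 0.0491) and in DESeq2 (0.0346). Without Col-0 replicate 2, its highest Col-0 library, the 35S:miR858 log2 fold change was 0.03. Over left-out libraries the 35S:rMYB83 value ranged from -1.19 to -0.44. With the green shoot covariate NIP1;1 passed in neither line. NIP3;1 (AT1G31885) ranged from 5.17 to 10.4 CPM in Col-0, 2.52 to 5.38 in 35S:miR858 and 4.16 to 4.88 in 35S:rMYB83, and without Col-0 replicate 1 it too passed as lower in 35S:miR858 (-1.11, adjusted p = 0.0205) and in 35S:rMYB83 (-1.03, adjusted p = 0.0358). In 35S:miR858 this gene also passed on library totals (adjusted p = 0.0356) and with the green shoot covariate (0.0334). The part of shoot tissue in the level of these genes was not tested.

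The 3 SIP genes, channels of the endoplasmic reticulum, passed in neither line under TMM scaling. SIP1;1 (AT3G04090) was the most abundant, ranging from 80 to 97.2 CPM in Col-0, 76 to 95.3 in 35S:miR858 and 90.2 to 105 in 35S:rMYB83. SIP1;2 (AT5G18290) stood between 3.48 and 6.97 CPM in all libraries. SIP2;1 (AT3G56950) stood between 41 and 53.3 CPM, with log2 fold changes of -0.15 ± 0.11 in 35S:miR858 and -0.22 ± 0.11 in 35S:rMYB83, and without Col-0 replicate 1 it passed in 35S:rMYB83 (log2 fold change -0.33, adjusted p = 0.0276). On library totals it passed as lower in 35S:miR858 (-0.29, adjusted p = 0.0439) and in 35S:rMYB83 (-0.31, adjusted p = 0.0416). Its exons share 147 bases with AT3G56940 on the other strand, whose means were 69.7, 56.3 and 110 CPM in Col-0, 35S:miR858 and 35S:rMYB83. They also share 21 bases with AT3G08805 on the other strand, which is not among the counted loci. A p that misses the threshold does not show that a gene was at the same level.

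Set against each other, the lines differed at the threshold in 4 aquaporins. PIP1;5 was higher in 35S:rMYB83, by 1.36 ± 0.15 on the log2 scale as given above. NIP1;2 was higher in 35S:rMYB83 as well, by 0.71 ± 0.14 (adjusted p = 0.0248), and PIP1;3 and TIP2;1 were lower, by log2 fold changes of -0.84 ± 0.18 (adjusted p = 0.031) and -0.71 ± 0.15 (adjusted p = 0.029). In each of the 4 genes the libraries of the lines did not overlap. For NIP1;2 the call ended without 35S:miR858 replicate 1, 2 or 3 (adjusted p = 0.0606, 0.0569 and 0.0536) or 35S:rMYB83 replicate 2 or 3 (0.106 and 0.0604). For PIP1;3 it ended without Col-0 replicate 3 (0.0521), 35S:miR858 replicate 2 or 3 (0.103 and 0.0509) or 35S:rMYB83 replicate 1, 2 or 3 (0.113, 0.0571 and 0.0716). For TIP2;1 it ended without 35S:miR858 replicate 1, 2 or 3 (0.057, 0.123 and 0.0582) or 35S:rMYB83 replicate 2 or 3 (0.122 and 0.0993). Among the 25 that did not pass, 3 passed in fits that left out 1 library, all as higher in 35S:rMYB83. PIP1;4 (adjusted p = 0.0677) passed without Col-0 replicate 2 (0.0477) or 35S:rMYB83 replicate 3 (0.0247), NIP2;1 (0.0664) without Col-0 replicate 1 (0.0399), and NIP5;1 (0.09) without 35S:rMYB83 replicate 3 (0.0496). On library totals all 3 passed (adjusted p = 0.0396, 0.0485 and 0.0315). DESeq2 called PIP1;4 (0.00996) and NIP2;1 (0.0158), and also PIP2;1 as lower in 35S:rMYB83 (0.0141). NIP2;1 passed as well with the green shoot covariate (0.0184) and in a fit of the 2 groups compared (0.0472).

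**Figure D5:**
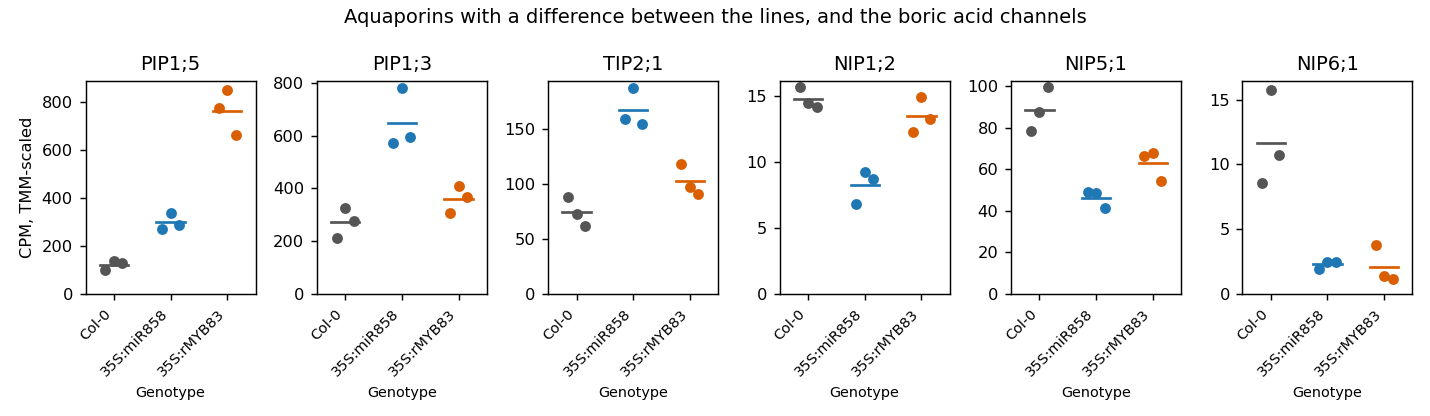
Level (CPM, TMM-scaled) of PIP1;5, PIP1;3, TIP2;1, NIP1;2, NIP5;1 and NIP6;1 by genotype, with 1 point per library and a line at the mean (n = 3). The mean of the first gene climbs from 122 CPM in Col-0 to 761 CPM in 35S:rMYB83, the next pair are highest and the following pair lowest in 35S:miR858, and the last is low in both lines.

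The 6 members with too few counts to test are known mostly from pollen, flowers or seeds. TIP1;3 (AT4G01470) and TIP5;1 (AT3G47440), both pollen TIP genes, had 7 and 2 counts over the 9 libraries, and all 7 counts of TIP1;3 were in Col-0. TIP3;2 (AT1G17810), a seed TIP, had 14 counts, of which 1, 3 and 4 were in 35S:miR858 and 0, 3 and 1 in 35S:rMYB83. On the other strand its exons share 91 bases with AT1G17820 and 462 with AT1G05333, which is not among the counted loci. TIP5;1 shares 91 with AT3G47450. In Col-0, 35S:miR858 and 35S:rMYB83, AT1G17820 stood at means of 20.8, 15.9 and 18 CPM and AT3G47450 at 7.59, 7.35 and 10.5. Reads from overlapping genes cannot be told apart there. NIP4;1 (AT5G37810) and NIP4;2 (AT5G37820), both of pollen, had 0 and 26 counts, and Col-0 held 3, 10 and 7 of the latter. NIP7;1 (AT3G06100), a boric acid channel of anthers, had 12 counts, of which 5 were in Col-0 replicate 1. No fold change is given at these counts.

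Genes that act with aquaporins were read from 4 lists, and their counts stand beside the same background of 25.1% of genes in 35S:miR858 and 16.4% of genes in 35S:rMYB83. The median log2 fold change over the tested members was 0.09 and -0.10 for the partners of PIP trafficking, -0.01 and -0.14 for the boron exporters, -0.02 and 0.07 for the proton pumps and -0.63 and -0.22 for the water deficit genes, in 35S:miR858 and 35S:rMYB83, beside -0.02 and 0.01 over all genes. Of 9 tested partners of PIP trafficking and turnover, 3 rose in 35S:miR858, and 0 passed in 35S:rMYB83, where 3 had an unadjusted p under 0.05 in edgeR. The backgrounds above are at the adjusted threshold and do not apply to that unadjusted count. Those that rose were SYP121, a syntaxin that delivers PIP2 proteins to the plasma membrane (log2 fold change 0.60 ± 0.17, adjusted p = 0.0247), and the ubiquitin ligases RMA1 (0.97 ± 0.19, adjusted p = 0.00538) and RMA2 (0.68 ± 0.18, adjusted p = 0.0199). The SYP121 call ended without Col-0 replicate 1 or 2 (adjusted p = 0.06 and 0.0752) or 35S:miR858 replicate 1 or 2 (0.0601 and 0.0847), and the RMA2 call without Col-0 replicate 1 (0.0541) or 35S:miR858 replicate 3 (0.0721). Of 5 tested boron exporters, BOR1, which loads boron into the xylem, rose in both lines. Its mean level of 40.8 ± 7.17 CPM in Col-0 compared with 83.2 ± 1.65 CPM in 35S:miR858 and with 102 ± 5.32 CPM in 35S:rMYB83 (SD, n = 3), and the log2 fold changes were 1.03 ± 0.12 (adjusted p = 0.000359) and 1.33 ± 0.12 (adjusted p = 0.000164). BOR5 fell in 35S:miR858 (-2.60 ± 0.65, adjusted p = 0.0165), from 3.35 ± 2.44 CPM to 0.532 ± 0.306 CPM, a call that ended without Col-0 replicate 2 (log2 fold change -1.80, adjusted p = 0.0636) or 35S:miR858 replicate 1 or 2 (0.0549 and 0.0642). BOR2, BOR3 and BOR4 passed in neither line.

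Of 8 proton pump genes, AHA1, a main plasma membrane proton pump, fell in both lines, from a mean of 991 ± 140 CPM in Col-0 to 641 ± 12.9 CPM in 35S:miR858 and to 669 ± 31.3 CPM in 35S:rMYB83. Its log2 fold change was -0.63 ± 0.11 (adjusted p = 0.0029) and -0.57 ± 0.11 (adjusted p = 0.00755). AHA11, of the same pump family, fell in 35S:rMYB83 (-0.43 ± 0.12, adjusted p = 0.032), and VHA-A3, a subunit of the vacuolar proton pump, rose in 35S:miR858 (0.39 ± 0.12, adjusted p = 0.0472). The AHA11 call ended without Col-0 replicate 2 or 3 (adjusted p = 0.114 and 0.11) or 35S:rMYB83 replicate 1 or 2 (0.1 and 0.0809). The VHA-A3 call held only without Col-0 replicate 3 or 35S:miR858 replicate 1, and its adjusted p was 0.094 and 0.07 without Col-0 replicate 1 or 2, 0.117 and 0.147 without 35S:miR858 replicate 2 or 3, and 0.0593, 0.0605 and 0.0634 without 35S:rMYB83 replicate 1, 2 or 3. Of 12 tested genes of the water deficit and abscisic acid response, 5 fell and 0 rose in 35S:miR858, and 2 fell and 1 rose in 35S:rMYB83. RD29A, a marker of drought and cold, fell in both lines, from 68.4 ± 7.48 CPM in Col-0 to 34.1 ± 9.47 CPM in 35S:miR858 (-1.01 ± 0.19, adjusted p = 0.00475) and 28.8 ± 5.4 CPM in 35S:rMYB83 (-1.25 ± 0.20, adjusted p = 0.00266). The protein phosphatase genes ABI2 and HAI2, which act in abscisic acid signalling, fell in 35S:miR858, with log2 fold changes of -0.77 ± 0.16 (adjusted p = 0.00638) and -3.14 ± 0.71 (adjusted p = 0.0101). HAI2 rests on low levels, of 2.57 ± 0.583 CPM in Col-0 and 0.288 ± 0.254 CPM in 35S:miR858, and its log2 fold change was -3.76 without 35S:miR858 replicate 1 and -2.55 without replicate 3. The list's other falls there, named after their values were seen, were ABI1, of the same phosphatase family, and COR15A, a chloroplast protein of cold and drought. In 35S:rMYB83 the cold-induced gene KIN1 fell (-1.98 ± 0.44, adjusted p = 0.0136) and the dehydrin COR47 rose (0.58 ± 0.15, adjusted p = 0.0291). The KIN1 log2 fold change was -1.27 (adjusted p = 0.0468) without both libraries rich in green shoot markers. The KIN1 call ended without 35S:rMYB83 replicate 3 (adjusted p = 0.0604), and the COR47 call without Col-0 replicate 1 or 3 (0.059 and 0.101) or 35S:rMYB83 replicate 1 or 2 (0.067 and 0.0917). Between the lines 0 members of these 4 lists passed in edgeR, where 4.05% of all genes passed. At an unadjusted p under 0.05 were 2 trafficking partners, 1 boron exporter, 1 pump and 4 water deficit genes. The share of all genes at that unadjusted cutoff is not given here, so these counts cannot be read as many or few.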

How the data were processed

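The deposited files hold whole-number read counts per gene, 1 file per library. Per the submitters' processing notes, FastQC, Trimmomatic, TopHat2 2.0.14 and HTSeq were used with the TAIR10 build. Neither the strand setting nor the annotation release is stated. The 5 summary lines of each file were left out. Reads outside genes came to 3.62% to 5.96% and ambiguous reads to 1.72% to 2.08% of all gene, outside and ambiguous reads together.

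From these counts, filterByExpr by genotype kept 19496 of 28775 loci, and edgeR 4.0.16 (R 4.3.3) fitted all 9 libraries at once with TMM scaling and a quasi-likelihood F test. P-values were adjusted by Benjamini-Hochberg over all genes tested, with a threshold of 0.05. Standard errors (SE) were taken as the log2 fold change divided by the root of its F statistic. Levels per kilobase use the merged exon length in TAIR10.1, in which 28009 loci matched by locus tag. The procedure was also run on simulated counts, drawn independently around a shared mean per gene with known changes added. Its outcome is not given here. The simulation held no uneven shoot material, so it cannot speak to that feature of the libraries. The alternatives were other scalings, no filter on low counts, a fit of the 2 groups compared, a replicate block, a green shoot covariate, left-out libraries, and DESeq2 1.42.0.

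The members and lists were chosen with earlier results of these data known. All members are named. Values in every library are given for tested members that passed in any comparison or are among the 3 highest per kilobase. For other lists, up to 3 members per comparison that passed were eligible by smallest adjusted p. Not all are printed.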

Additional observations from a re-analysis of the deposited data

How the results depend on the processing

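The settings for single aquaporins and their counts were planned, and those for the other lists and for summed levels were added after seeing the data. The setting without both libraries rich in green shoot markers rests on the marker sums of these same data. None of the 36 aquaporin calls changed direction under any setting. RLE size factors and the absence of a filter changed no aquaporin call. No pairing of the replicate numbers is stated. The correlation of deviations from the genotype means ranged from -0.257 to 0.548 between same-numbered libraries. It ranged from -0.538 to 0.464 between differently numbered ones. These ranges overlap and can neither show nor exclude a pairing. With the replicate block, 14 and 12 aquaporins were higher and 6 and 4 lower in 35S:miR858 and 35S:rMYB83, and NIP2;1 no longer passed (adjusted p = 0.0659). The block added PIP2;7 (0.0131) and NIP3;1 (0.018) in 35S:miR858, PIP1;3 (0.0197), TIP2;1 (0.0304) and NIP3;1 (0.0396) in 35S:rMYB83, and PIP1;4 (0.0375) between the lines.

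Aquaporins lower in 35S:rMYB83 numbered 5 on library totals, and those higher between the lines 5 on library totals and 4 in DESeq2. Over the left-out libraries, 5 to 11 were higher and 2 to 6 lower in 35S:rMYB83, and 1 to 3 higher and 0 to 2 lower between the lines. On library totals the summed level in Col-0, 35S:miR858 and 35S:rMYB83 was 1539, 2388 and 2449 CPM for PIP1, 1414, 2297 and 1827 CPM for PIP2, 1597, 3135 and 2885 CPM for TIP, 223, 121 and 133 CPM for NIP, and 153, 129 and 144 CPM for SIP.

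PIP trafficking partners higher in 35S:miR858 numbered 1 on library totals, and 1 was higher in 35S:rMYB83 with only the 2 groups, the replicate block or the green shoot covariate. In DESeq2, 1 was lower between the lines. Left-out libraries gave 1 to 3 higher in 35S:miR858, 0 to 1 higher and 0 to 1 lower in 35S:rMYB83, and 0 to 1 lower between the lines. Boron exporters higher in 35S:miR858 numbered 2 with only the 2 groups, and 1 was lower in 35S:rMYB83 without both libraries rich in green shoot markers (replicate 1 of Col-0 and of 35S:rMYB83). Left-out libraries gave 1 to 2 higher in either line and 0 to 1 lower in either line. Proton pumps higher in 35S:miR858 numbered 0 on library totals, with only the 2 groups, and without both libraries, and 2 with the green shoot covariate or DESeq2. Pumps lower there numbered 2 on library totals and without both libraries. In 35S:rMYB83, 1 pump was higher with only the 2 groups, the replicate block or the covariate, 2 in DESeq2, and 1 was lower with only the 2 groups. Left-out libraries gave 0 to 1 pumps higher in either line, with 1 to 2 lower in either line. Water deficit genes higher in 35S:miR858 numbered 1 without both libraries. In 35S:rMYB83, 2 were higher with only the 2 groups, the replicate block or DESeq2, and between the lines 1 was higher on library totals, with the replicate block or in DESeq2. Left-out libraries gave 0 to 2 higher and 1 to 3 lower in 35S:rMYB83.

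Log2 fold changes that changed sign were those of aquaporins that did not pass in that same comparison. In 35S:rMYB83 against Col-0, PIP2;7 was -0.08 on library totals and -0.10 without both libraries, SIP1;2 was -0.01 on library totals, and PIP2;8 was 0.00 with RLE, 0.04 with the covariate, 0.14 without both libraries and 0.01 in DESeq2. Between the lines, with the covariate, PIP2;4 was 0.18, PIP2;6 -0.41, TIP1;2 0.07, TIP2;3 0.04 and TIP4;1 0.12. Without both libraries, PIP2;4 was 0.01, PIP2;6 -0.33 and TIP1;2 0.02, and TIP1;2 was 0.03 on library totals. Over left-out libraries in 35S:miR858, PIP2;6 ranged from -0.48 to 1.92, TIP3;1 from -0.01 to 0.32 and NIP1;1 from -0.72 to 0.03. In 35S:rMYB83, PIP2;7 ranged from -0.13 to 0.28, PIP2;8 from -0.30 to 0.14, TIP4;1 from -0.01 to 0.41 and SIP1;2 from -0.02 to 0.22. Between the lines, PIP2;4 ranged from -0.17 to 0.12, PIP2;6 from -0.32 to 1.63, TIP1;2 from -0.11 to 0.11, TIP2;2 from -0.32 to 0.15, TIP2;3 from -0.33 to 0.17, TIP4;1 from -0.24 to 0.10, NIP3;1 from -0.21 to 0.24 and NIP6;1 from -0.87 to 0.09. The cause of these changes was not tested. Members under about 10 CPM rest on few counts per library, and 6 of 35 could not be tested at this depth.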
